A study of Mus musculus with 9 samples.

Results

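The 35 genes described here act in the joining and repair of DNA, and 6 of them (Xrcc4, Xrcc5, Xrcc6, Lig4, Prkdc and Dclre1c) form the core of non-homologous end joining. They were taken from a list of symbols, with the brightest probe set on average standing for each gene, and are 35 of the 9949 genes that could be named on the array. All 35 passed the filter on low signal and were among the 9370 genes tested. RNA came from cultured mouse cells of 3 lines, with 3 Affymetrix mouse expression arrays per line. EBFko cells are deficient in EBF, a transcription factor of the early B lineage, and Pax5ko cells lack Pax5, a transcription factor of B lineage commitment. RAG2ko cells lack RAG2, a subunit of the recombinase that cuts DNA at antigen receptor genes. EBFko is labelled lymphoid specified, Pax5ko B lineage specified and RAG2ko B lineage committed. EBFko and Pax5ko cells were grown with recombinant human Flt3 ligand and recombinant mouse IL-7, each at 10 ng/ml, and RAG2ko cells with mouse IL-7 at 10 ng/ml alone. In both comparisons with RAG2ko, the medium and the genotype therefore cannot be told apart. No wild-type cells are among the 9 arrays, and the sources used here do not give the age, strain or alleles of the source animals.

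End joining seals double-strand breaks without a template. Ku, a heterodimer of the proteins encoded by Xrcc6 (Ku70) and Xrcc5 (Ku80), binds broken ends and recruits the kinase encoded by Prkdc (DNA-PKcs), which activates the nuclease Artemis, encoded by Dclre1c, to open hairpin ends. The XRCC4 and LIG4 proteins form the complex that ligates the ends. In developing lymphocytes the same proteins close the breaks that the RAG recombinase makes during V(D)J recombination, while the other repair pathways deal with replication errors, damaged bases, bulky lesions and breaks that have a sister chromatid as template.

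Promoter windows of 4 end joining genes are shown because their transcripts were called in RAG2ko against EBFko, Xrcc6 as lower and the others as higher. They are RefSeq sequences of build GRCm38.p6, read 5′ to 3′ on the gene's strand, and hold 250 bases before and 50 bases from the annotated start. Capitals mark matches to 1 of 5 motifs on either strand. Xrcc5 lies at chr1:72307171-72307470 on the plus strand, Xrcc6 at chr15:82016119-82016418 on the plus strand, Xrcc4 at chr13:90089559-90089858 on the minus strand and Lig4 at chr8:9977631-9977930 on the minus strand.
Xrcc5: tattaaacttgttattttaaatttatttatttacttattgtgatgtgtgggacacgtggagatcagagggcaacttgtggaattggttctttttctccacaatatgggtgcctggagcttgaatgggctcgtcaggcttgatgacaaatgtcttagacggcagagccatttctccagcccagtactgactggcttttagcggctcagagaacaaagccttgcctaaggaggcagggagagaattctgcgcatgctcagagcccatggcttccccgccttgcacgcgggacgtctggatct
Xrcc6: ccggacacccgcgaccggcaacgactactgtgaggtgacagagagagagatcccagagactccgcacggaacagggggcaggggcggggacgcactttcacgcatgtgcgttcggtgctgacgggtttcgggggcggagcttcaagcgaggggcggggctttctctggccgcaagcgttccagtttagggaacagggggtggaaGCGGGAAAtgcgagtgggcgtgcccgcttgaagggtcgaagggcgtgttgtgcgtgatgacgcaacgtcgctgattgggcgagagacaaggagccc
Xrcc4: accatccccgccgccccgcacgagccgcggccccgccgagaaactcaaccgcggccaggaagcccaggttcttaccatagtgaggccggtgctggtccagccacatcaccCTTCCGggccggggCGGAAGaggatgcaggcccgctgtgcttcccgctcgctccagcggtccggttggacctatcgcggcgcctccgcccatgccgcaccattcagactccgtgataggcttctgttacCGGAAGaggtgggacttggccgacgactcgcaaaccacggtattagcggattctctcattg
Lig4: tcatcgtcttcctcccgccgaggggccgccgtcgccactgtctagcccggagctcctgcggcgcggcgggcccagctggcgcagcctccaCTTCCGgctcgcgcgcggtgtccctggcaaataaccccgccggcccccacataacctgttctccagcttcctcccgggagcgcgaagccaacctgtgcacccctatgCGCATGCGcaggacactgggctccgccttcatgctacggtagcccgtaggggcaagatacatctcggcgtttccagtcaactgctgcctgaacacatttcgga

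The Xrcc5 window held no match to any of the 5 motifs. That of Xrcc6 held 1 octamer of the E2F type, a motif of cell cycle genes, on the reverse strand. Xrcc4 had 3 copies of the ETS core CGGAAG, and Lig4 had 1 ETS core and the NRF1 core CGCATGCG. None of the marked matches overlap, and a second annotated start of Lig4 has a window that is not printed. A window was matched for 29 of the 35 genes. The ETS core was found in 16 of these 29 (55.2%), against 18.8% of all genes and 23.5% of protein-coding genes with a window. E2F octamers (TTTCCCGC, TTTGGCGC, TTTCGCGC or TTTGCCGC) were found for 5 genes, Xrcc6, Chek2, Brca2, Bard1 and Msh6, which is 17.2% against 2.6% of all genes and 3.29% of protein-coding genes. The NRF1 core was found for 2 of the 29, Lig4 and Xpa (6.90%), against 2.07% of all genes and 2.77% of protein-coding genes. The EBF core CCCNNGGG was found for 6 (20.7%), against 15.4% of all and 17.6% of protein-coding genes. The E box CAGGTG was found for 3 (10.3%), against 22.6% and 22.1%. The windows of the 29 genes had a median GC content of 59.2%, against 56.3% for protein-coding genes, which bears on how often GC-rich motifs match. Among the E2F genes, Brca2 had a higher signal in RAG2ko than in EBFko while Xrcc6 and Msh6 had a lower one, as given below. A match describes these letters and is neither a binding site nor a cause.

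Levels below are log2 signals, given per array in the order of replicates 1 to 3 or as mean ± SD (n = 3), and differences are log2 differences ± SE from a limma fit over all 9 arrays. A difference was called at an adjusted p under 0.05 over all genes tested, and higher, lower, rose and fell without further qualification refer to called differences. Signals are not comparable between probe sets, so no gene's level is set against another's. Whether the samples of a line were grown as separate cultures is not stated, so every p-value measures the spread among these 9 samples and no more. The 3 comparisons share arrays, so a gene's differences are given side by side and are not independent of each other.

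The lines also differed in markers of cell type. Median signals per array ranged from 73.4 to 97.6, and between 40.9% and 47.2% of the probe sets had a signal under 64, which is 6 on the log2 scale. The mean of 15 B lineage genes was 7.62 to 8.54 on the EBFko arrays, 10.00 to 10.30 on the Pax5ko arrays and 11.15 to 12.07 on the RAG2ko arrays. Ebf1 was bright on the arrays labelled EBFko (10.87 ± 0.21), and its signal on those labelled Pax5ko was lower (9.98 ± 0.09, adjusted p = 0.0352), against the order of the B lineage means. Since the sources used here do not place its probes relative to the deleted part, this signal checks no genotype. Ebf1 is itself among the 15 genes, of which 6 were higher and 2, Ebf1 and Blnk, lower in Pax5ko than in EBFko. In RAG2ko, 6 were higher than in Pax5ko and 9 higher than in EBFko, with Ly6d and Ptprc lower in both. Of all genes tested, 10.7%, 18% and 22% were called in these comparisons. The mean of 20 stromal genes was 9.74, 8.43 and 9.90 in EBFko and 9.44, 8.27 and 10.07 in Pax5ko. In RAG2ko it was 5.96 and 6.61 on replicates 1 and 2 but 9.0 on replicate 3, and 5 of the 20 genes had a RAG2ko mean below 6, against 2 of 20 in each other line. Replicate 3 thus had the highest stromal mean in every line. RAG2ko replicate 3 also stood apart in Rag2 signal, at 9.10 against 5.96 and 5.60 on the other RAG2ko arrays. Few of the 20 stromal genes were called. In Pax5ko 1 was lower than in EBFko, and in RAG2ko 1 was lower than in Pax5ko and 3 lower than in EBFko, with 0 higher. T cell, NK cell and myeloid gene means lay between 3.47 and 6.98 on all arrays. The part of these other transcripts in the differences between lines was not tested, and bulk arrays cannot tell fewer cells of a type from less RNA per cell.

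Of the 35 genes, 4 were higher and 2 lower in Pax5ko than in EBFko, where 5.1% of all genes tested were higher, 5.56% lower and 10.7% called in either direction. In RAG2ko against Pax5ko, 7 were higher and 3 lower, against 9.8% and 8.15% of all genes. In RAG2ko against EBFko, 7 were higher and 3 lower, against 11.4% and 10.6%. The share of members called was 17.1%, 28.6% and 28.6% in the same order, against 10.7%, 18% and 22% of all genes. Their median absolute difference was 0.25, 0.40 and 0.39, below the 0.35, 0.46 and 0.50 of all genes, and 4, 5 and 6 of them differed at least 2-fold, where 17.8%, 25.2% and 26.8% of all genes did. Most of their differences were thus small, and the larger ones were in Xpc, Parp1, Polm, Xrcc5 and Lig4. With arrays centred on their medians in place of quantile normalization, the counts were 5 higher and 1 lower, 3 and 2, and 8 and 1. That scaling moved the median difference of all genes in Pax5ko minus EBFko from -0.02 to 0.09. Called in at least 1 comparison were 16 members, against 30.1% of all genes, and Xpc was the 1 member called in all 3.

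**Figure D1:**
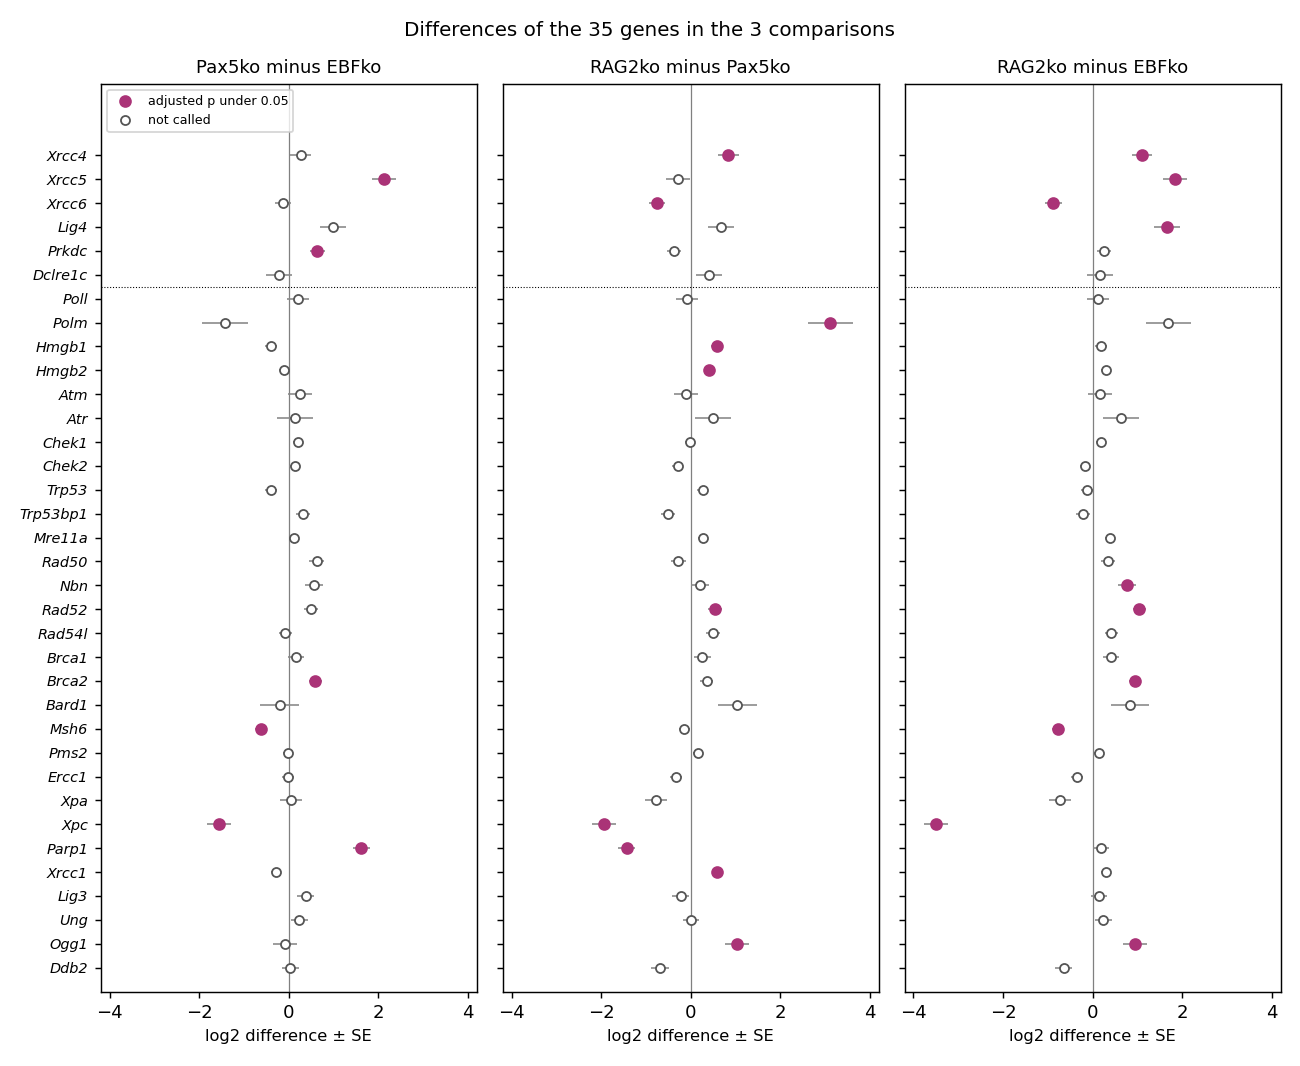
Log2 difference ± SE (x axis) of each of the 35 genes (y axis, end joining above the dotted line) in the 3 comparisons, with filled points for adjusted p under 0.05. Xpc is lower in all 3 panels, Parp1 is higher in the left panel and lower in the middle panel, and most genes lie near 0.

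The Ku subunits differed between the lines in separate ways. Xrcc5 (Ku80, probe set 1451968_at) gave 8.32, 8.69 and 7.72 in EBFko, 10.54, 10.35 and 10.25 in Pax5ko and 10.30, 10.21 and 9.75 in RAG2ko. All EBFko arrays lay below every array of the other lines, and Pax5ko and RAG2ko overlapped. Xrcc5 was higher in Pax5ko than in EBFko by 2.14 ± 0.27, a 4.4-fold change (adjusted p = 0.00307), and higher in RAG2ko than in EBFko by 1.84 ± 0.27 (3.59-fold, adjusted p = 0.003). Both calls held under every alternative run, and RAG2ko minus Pax5ko was -0.29 ± 0.27 (adjusted p = 0.499). Xrcc6 (Ku70, 1417437_at) instead gave 12.55, 12.57 and 12.38 in EBFko, 12.46, 12.26 and 12.41 in Pax5ko and 11.39, 11.46 and 12.03 in RAG2ko. EBFko and Pax5ko overlapped, and the RAG2ko arrays lay below both, with replicate 3, the array with the highest stromal mean of that line, nearest to them. In EBFko, replicate 3 had the highest stromal mean but the lowest Xrcc6 signal. In Pax5ko, replicate 3 had the highest stromal mean and an Xrcc6 signal between those of the other arrays. What stromal transcripts contribute to the Xrcc6 differences was not tested. Xrcc6 was lower in RAG2ko than in Pax5ko by a log2 difference of -0.75 ± 0.18 (1.68-fold, adjusted p = 0.0307) and than in EBFko by -0.87 ± 0.18 (1.83-fold, adjusted p = 0.014), against -0.13 ± 0.18 for Pax5ko minus EBFko (adjusted p = 0.76), whose sign turned to 0.07 under median centring. Without RAG2ko replicate 3 the called differences were -0.95 and -1.07. The call against EBFko was lost under median centring and without RAG2ko replicate 2. That against Pax5ko was lost under median centring, in a fit of the 6 arrays and without EBFko replicates 1 or 2, any Pax5ko array, or RAG2ko replicates 1 or 2.

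Both genes of the ligation complex had their highest signal in RAG2ko. Xrcc4 (the scaffold of the ligase, 1424601_at) gave 7.65, 7.55 and 8.14 in EBFko, 8.29, 7.76 and 8.06 in Pax5ko and 8.76, 9.20 and 8.68 in RAG2ko. RAG2ko lay above the other lines, which overlapped. The RAG2ko signal exceeded that of EBFko by 1.10 ± 0.23 (2.15-fold, adjusted p = 0.0136), a call lost without EBFko replicate 1, and that of Pax5ko by 0.84 ± 0.23 (1.79-fold, adjusted p = 0.0437). The second of these was lost under 4 of 9 alternatives and without any single array except EBFko replicate 3 or RAG2ko replicate 3. A second Xrcc4 probe set, 1424602_s_at, gave 1.62 ± 0.28 for RAG2ko minus EBFko (adjusted p = 0.0107 over 40928 probe sets). Lig4 (the ligase, 1439487_at) gave 7.43, 6.53 and 7.19 in EBFko, 8.23, 8.11 and 7.76 in Pax5ko and 8.77, 8.30 and 9.06 in RAG2ko. None of the 3 lines overlapped another, with EBFko lowest and RAG2ko highest. Lig4 was higher in RAG2ko than in EBFko by 1.66 ± 0.29 (3.17-fold, adjusted p = 0.0066), a call kept under every alternative run, while the steps between were 0.99 ± 0.29 (adjusted p = 0.0811) and 0.68 ± 0.29 (adjusted p = 0.157) and neither passed the test.

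The genes that prepare the ends differed less. Prkdc (DNA-PKcs, 1451576_at) gave 9.16, 9.11 and 8.77 in EBFko, 9.76, 9.72 and 9.49 in Pax5ko and 9.37, 9.38 and 9.07 in RAG2ko. Pax5ko lay above both other lines, which overlapped each other. Prkdc rose in Pax5ko over EBFko by 0.64 ± 0.16 (1.56-fold, adjusted p = 0.0461), a call lost under 4 of 9 alternatives and without any single array except RAG2ko replicate 3. The other differences were -0.38 ± 0.16 for RAG2ko minus Pax5ko (adjusted p = 0.15) and 0.26 ± 0.16 for RAG2ko minus EBFko (adjusted p = 0.298). Dclre1c (Artemis, 1421800_at) had means of 7.17 ± 0.09, 6.95 ± 0.40 and 7.35 ± 0.50 in EBFko, Pax5ko and RAG2ko, its arrays overlapped in every comparison, and its largest difference was 0.40 in size. In RAG2ko against EBFko 4 of the 6 end joining genes were called, 3 higher and 1 lower, where 22% of all genes were called. In Pax5ko against EBFko 2 of 6 were called, both higher, where 10.7% of all genes were called. In RAG2ko against Pax5ko 2 of 6 were called, 1 higher and 1 lower, where 18% of all genes were.

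**Figure D2:**
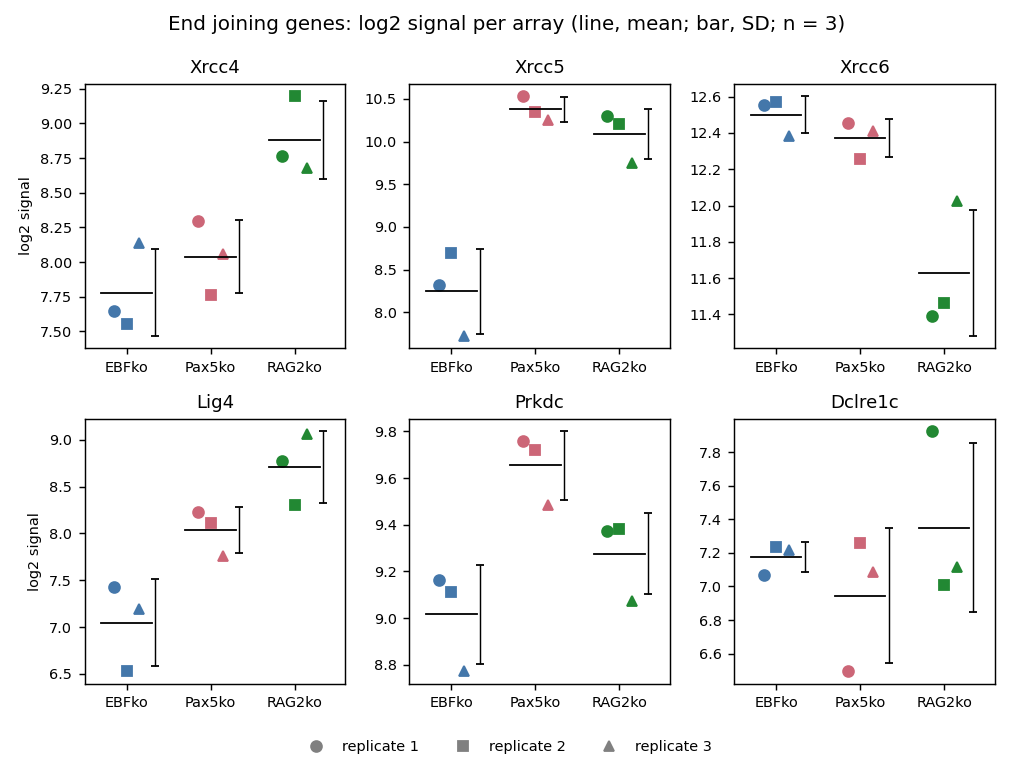
Log2 signal (y axis) of the 6 end joining genes on each array of EBFko, Pax5ko and RAG2ko (x axis), with symbols for replicates, the mean as a line and the SD as a bar. Xrcc5 is low on the 3 EBFko arrays, Xrcc6 is low on the 3 RAG2ko arrays, and Lig4 has its 3 lines apart.

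Among genes that assist V(D)J recombination and end joining, Polm had the largest difference between lines. Polm (1417249_at) encodes DNA polymerase mu, which fills gaps at the ends being joined. It gave 6.09, 5.95 and 6.21 in EBFko, 5.77, 3.61 and 4.59 in Pax5ko and 8.26, 7.51 and 7.57 in RAG2ko. The 3 lines did not overlap, and the Pax5ko arrays were dim and scattered. Polm was higher in RAG2ko than in Pax5ko by 3.12 ± 0.51 (8.7-fold, adjusted p = 0.00588), a call kept under every alternative run. Its size rests on dim Pax5ko signal and was 1.78 once signals under 64 were raised to 64. RAG2ko minus EBFko was 1.70 ± 0.51 (adjusted p = 0.0514), just outside the threshold, and 1.67 and called with signals raised to 64. Pax5ko minus EBFko was -1.42 ± 0.51 (adjusted p = 0.135) and -0.11 with the signals raised. Poll, which encodes the related polymerase lambda, had means of 8.01 ± 0.28, 8.21 ± 0.42 and 8.14 ± 0.19, overlapped in all 3 comparisons and was called in none.

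The DNA-bending proteins HMGB1 and HMGB2, which help the RAG recombinase bind its signal sequences, were encoded by bright transcripts that rose slightly in RAG2ko over Pax5ko. Hmgb1 (1435324_x_at) gave 14.57, 14.69 and 14.79 in EBFko, 14.34, 14.27 and 14.25 in Pax5ko and 14.75, 14.78 and 15.09 in RAG2ko. All Pax5ko arrays lay below the arrays of the other lines. Hmgb1 rose in RAG2ko over Pax5ko by 0.59 ± 0.13 (1.5-fold, adjusted p = 0.0207), a call lost in a fit of the 6 arrays and without any of the Pax5ko arrays. Its other 3 probe sets gave 0.61, 0.48 and 1.20 for the same comparison. Hmgb2 (1437313_x_at) had means of 13.92 ± 0.15, 13.81 ± 0.03 and 14.23 ± 0.02 and was higher in RAG2ko than in Pax5ko by 0.42 ± 0.11 (1.33-fold, adjusted p = 0.0375). That call was lost in a fit of the 6 arrays and without EBFko replicate 2, any Pax5ko array, or RAG2ko replicates 1 or 2. Probe sets with the suffix _x_at can match several transcripts.

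Of 6 damage signalling genes, 0 were called in the limma fit, where 10.7%, 18% and 22% of all genes were called in the 3 comparisons, so a count this low in so few genes says little about the group. At an unadjusted p under 0.05, 0 of 6 were higher in any comparison, 1 was lower in Pax5ko than in EBFko and 2 were lower in RAG2ko than in Pax5ko. Counts at that unadjusted cut, here and below, have no share of all genes beside them and are descriptions only. Atm and Atr encode the apical kinases of the break and replication stress responses, Chek1 and Chek2 the kinases they activate, Trp53 the transcription factor p53, and Trp53bp1 a break-binding protein that favours end joining. Of these 6, the nearest to the threshold was Trp53bp1, with means of 11.18, 11.49 and 10.97 in the 3 lines and a RAG2ko minus Pax5ko difference of -0.52 ± 0.16 (adjusted p = 0.0617). Its other probe sets disagreed in direction for this comparison. Among them, 1446100_at gave 1.47 ± 0.48 (adjusted p = 0.106 over all probe sets) and 1426957_at gave -0.29 ± 0.21. Trp53 had means of 11.40 ± 0.08, 11.01 ± 0.19 and 11.27 ± 0.10, with -0.40 ± 0.13 for Pax5ko minus EBFko (adjusted p = 0.111). Atm gave 10.12, 10.11 and 9.12 in EBFko, 9.92, 10.20 and 9.99 in Pax5ko and 9.94, 10.01 and 9.87 in RAG2ko. EBFko replicate 3 was low in Atm and the other 8 arrays lay close together. The largest difference in either direction was 0.21 for Chek1 and 0.29 for Chek2. Atr was dim in EBFko and Pax5ko (5.42 ± 0.10 and 5.56 ± 0.73) and its largest difference was 0.64, in RAG2ko minus EBFko.

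The complex that senses breaks and starts resection is encoded by Mre11a, Rad50 and Nbn, and of these Nbn alone was called. Nbn (1448746_at) gave 9.32, 9.93 and 9.22 in EBFko, 10.09, 10.06 and 9.99 in Pax5ko and 10.36, 10.40 and 10.02 in RAG2ko. Every EBFko array was below the arrays of both other lines. Nbn rose in RAG2ko over EBFko by 0.77 ± 0.21 (1.71-fold, adjusted p = 0.0362), a call lost in a fit of the 6 arrays and without any single array except EBFko replicate 2 or RAG2ko replicate 3. Rad50, the ATPase, differed by 0.62 ± 0.16 in Pax5ko minus EBFko (adjusted p = 0.0523), and Mre11a, the nuclease, by 0.39 ± 0.12 in RAG2ko minus EBFko (adjusted p = 0.0564). Both lay just outside the threshold. In the same comparisons their second probe sets gave -0.01 ± 0.43 for Rad50 (1425939_at, dim at a mean of 5.02 in EBFko and Pax5ko) and -0.01 ± 0.19 for Mre11a (1441990_at).

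In homologous recombination, the reported probe sets of Rad52 and Brca2 had their lowest mean in EBFko and their highest in RAG2ko. Brca2 (1419076_a_at), a mediator of strand exchange, gave 8.93, 9.05 and 8.84 in EBFko, 9.40, 9.80 and 9.39 in Pax5ko and 9.85, 9.93 and 9.89 in RAG2ko. No line overlapped another. It was higher in RAG2ko than in EBFko by 0.95 ± 0.14 (1.93-fold, adjusted p = 0.00344), which held under every alternative run. The call in Pax5ko over EBFko, 0.59 ± 0.14 (1.5-fold, adjusted p = 0.0414), was lost with probe sets averaged, in a fit of the 6 arrays and without any single array except RAG2ko replicate 3. Rad52 (1416602_a_at), which anneals single strands, gave 6.92, 7.23 and 7.41 in EBFko, 7.57, 7.81 and 7.68 in Pax5ko and 8.33, 8.26 and 8.11 in RAG2ko. Its 3 lines did not overlap either. It was higher in RAG2ko than in EBFko by 1.05 ± 0.15 (2.07-fold, adjusted p = 0.00321), a call lost when its probe sets were averaged or limited to those with a plain _at suffix. The call over Pax5ko, 0.55 ± 0.15 (adjusted p = 0.0488), was lost under 7 of 9 alternatives and without EBFko replicate 2, any Pax5ko array, or RAG2ko replicates 1 or 2. Another Rad52 probe set, 1426296_at, had means of 7.38 ± 0.61, 7.25 ± 0.29 and 8.14 ± 0.43, with Pax5ko lowest. It gave 0.76 ± 0.36 for RAG2ko minus EBFko (adjusted p = 0.226 over all probe sets).

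Brca1, Bard1 and Rad54l were called in no comparison. Brca1, which with its partner Bard1 forms a ubiquitin ligase, had means of 10.05 ± 0.30, 10.21 ± 0.16 and 10.46 ± 0.19. Other Brca1 probe sets ordered the lines differently. Pax5ko had the lowest mean by 1451417_at (8.85, 8.59 and 9.18) and 1424630_a_at (8.79, 8.60 and 9.25), and RAG2ko by 1427698_at (6.22, 5.94 and 5.28). Bard1 was dim in EBFko (5.49 ± 0.29) and Pax5ko (5.28 ± 0.71) and reached 6.33 ± 0.64 in RAG2ko, with 1.04 ± 0.44 over Pax5ko (adjusted p = 0.146). Rad54l, a motor protein of homologous recombination, gave 10.54 ± 0.19, 10.47 ± 0.20 and 10.96 ± 0.06. Its other probe sets disagreed in direction, with -0.58 ± 0.16 for 1427125_s_at and 1.08 ± 0.15 for 1423123_at in RAG2ko minus EBFko, and the description that named these sets and the brightest one was also attached to probe sets of another gene. Which gene the Rad54l values measure is therefore uncertain.

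Mismatch repair was represented by Msh6, part of the complex that recognises mismatches, and Pms2, part of the nuclease complex that follows. Msh6 (1416915_at) gave 12.14, 12.33 and 12.19 in EBFko, 11.67, 11.65 and 11.46 in Pax5ko and 11.32, 11.43 and 11.60 in RAG2ko. EBFko was above both other lines, which overlapped. Relative to EBFko, Msh6 was lower in Pax5ko by a log2 difference of -0.63 ± 0.12 (1.54-fold, adjusted p = 0.0202) and in RAG2ko by -0.77 ± 0.12 (1.7-fold, adjusted p = 0.00474). Median centring ended both calls (-0.42 and -0.56). The Pax5ko call was also lost with probe sets averaged and without any 1 of the 6 EBFko and Pax5ko arrays. Its second probe set, 1434108_at, gave -0.19 and -0.34 for these comparisons. Pms2 had the smallest differences of all 35 genes, the largest being 0.17 in size.

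Xpc, the gene of the damage sensor that starts global nucleotide excision repair, changed most. Its signal (1422532_at, the only probe set) was 11.29, 11.40 and 12.24 in EBFko, 9.91, 10.38 and 9.94 in Pax5ko and 8.26, 8.16 and 8.01 in RAG2ko. The 3 lines were fully apart and in falling order. Relative to EBFko, Xpc was lower in Pax5ko by a log2 difference of -1.57 ± 0.27 (2.96-fold, adjusted p = 0.0112), lower in RAG2ko than in Pax5ko by -1.93 ± 0.27 (3.82-fold, adjusted p = 0.00319) and lower in RAG2ko than in EBFko by -3.50 ± 0.27 (11.3-fold, adjusted p = 0.000171). Each call held under every alternative run. RAG2ko replicate 3, with its higher stromal mean, had the lowest Xpc signal of the 9 arrays, and the differences without it were -1.87 against Pax5ko and -3.43 against EBFko. In EBFko, replicate 3 had both the highest stromal mean and the highest Xpc signal. In Pax5ko, replicate 3 had the highest stromal mean and an Xpc signal between those of the other arrays. The part of stromal transcripts in the Xpc differences was not tested.

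The other excision repair genes for bulky lesions did not pass the test. Xpa, which verifies damage, had means of 8.88 ± 0.21, 8.93 ± 0.28 and 8.15 ± 0.42, with -0.77 ± 0.25 for RAG2ko minus Pax5ko (adjusted p = 0.0753). Another Xpa probe set, 1437320_s_at, was dim in all lines (5.38 ± 0.83, 2.58 ± 0.57 and 2.85 ± 1.0) and gave -2.81 ± 0.61 for Pax5ko minus EBFko (adjusted p = 0.0455 over all probe sets) and -2.53 ± 0.61 for RAG2ko minus EBFko (adjusted p = 0.0365). Ddb2, which recognises ultraviolet damage and is a known target of p53 in human cells, had means of 9.64 ± 0.26, 9.68 ± 0.13 and 9.0 ± 0.28. Its RAG2ko differences were -0.68 ± 0.19 (adjusted p = 0.0514) and -0.65 ± 0.19 (adjusted p = 0.0531), both just outside the threshold, and a second probe set, 1436680_s_at, gave -0.87 ± 0.20 against Pax5ko (adjusted p = 0.0339 over all probe sets). Another Ddb2 probe set, 1436788_at, showed no such fall, with -0.15 ± 0.22 against Pax5ko and 0.01 ± 0.22 against EBFko. Ercc1, which encodes a nuclease subunit, had its largest difference at -0.34, in RAG2ko minus EBFko (adjusted p = 0.116).

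Parp1 was high in Pax5ko alone of the 3 lines. It encodes the enzyme that marks single-strand breaks with poly(ADP-ribose) and takes part in base excision repair and in alternative end joining. Its signal (1422503_s_at) was 12.53, 12.36 and 12.03 in EBFko, 13.85, 14.06 and 13.85 in Pax5ko and 12.37, 12.31 and 12.80 in RAG2ko. The Pax5ko arrays stood above all others, and EBFko and RAG2ko overlapped. Parp1 was higher in Pax5ko than in EBFko by 1.62 ± 0.19 (3.07-fold, adjusted p = 0.00228), and lower in RAG2ko than in Pax5ko by a log2 difference of -1.43 ± 0.19 (2.69-fold, adjusted p = 0.00239). RAG2ko minus EBFko was 0.19 (adjusted p = 0.52). Both calls held under every alternative run. The other 3 probe sets gave 1.75, 1.56 and 1.31 for Pax5ko minus EBFko and -1.43, -1.46 and -1.0 for RAG2ko minus Pax5ko.

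In base excision repair, Xrcc1 and Ogg1 were higher in RAG2ko than in Pax5ko, and Ogg1 also than in EBFko, but other probe sets or settings ended each call. Xrcc1 (1416587_a_at), the scaffold of single-strand break repair, gave 9.47, 9.46 and 9.58 in EBFko, 9.19, 9.07 and 9.38 in Pax5ko and 9.76, 9.75 and 9.89 in RAG2ko. No line overlapped another, and Pax5ko was lowest. It was higher in RAG2ko than in Pax5ko by 0.59 ± 0.12 (1.5-fold, adjusted p = 0.0142), but another probe set, 1435540_at, gave -0.14, and the call was also lost under median centring, with probe sets averaged and without Pax5ko replicate 1. RAG2ko minus EBFko was 0.30 ± 0.12 (adjusted p = 0.12) and Pax5ko minus EBFko -0.29 ± 0.12 (adjusted p = 0.185), neither called. Ogg1 (1430078_a_at), a glycosylase for oxidised guanine, gave 7.09, 7.79 and 7.08 in EBFko, 7.50, 6.75 and 7.47 in Pax5ko and 8.26, 8.38 and 8.17 in RAG2ko. RAG2ko lay above both other lines, which overlapped. It was higher in RAG2ko than in Pax5ko by 1.03 ± 0.27 (2.04-fold, adjusted p = 0.0386) and than in EBFko by 0.95 ± 0.27 (adjusted p = 0.0439). Each call was lost under 5 of 9 alternatives. The call over Pax5ko was lost without any single array except EBFko replicate 2, and that over EBFko without any except EBFko replicate 2 or Pax5ko replicate 2.

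Ung, the uracil glycosylase, had means of 10.30, 10.54 and 10.55 and was called in no comparison. Lig3, the ligase that works with XRCC1, was called in none by its brightest probe set (9.44 ± 0.21, 9.81 ± 0.12 and 9.59 ± 0.29). Its other probe sets disagreed. In RAG2ko minus Pax5ko, 1434432_at gave -1.57 ± 0.19 (adjusted p = 0.00303) and 1431715_a_at gave 0.83 ± 0.20 (adjusted p = 0.0403), both over all probe sets.

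**Figure D3:**
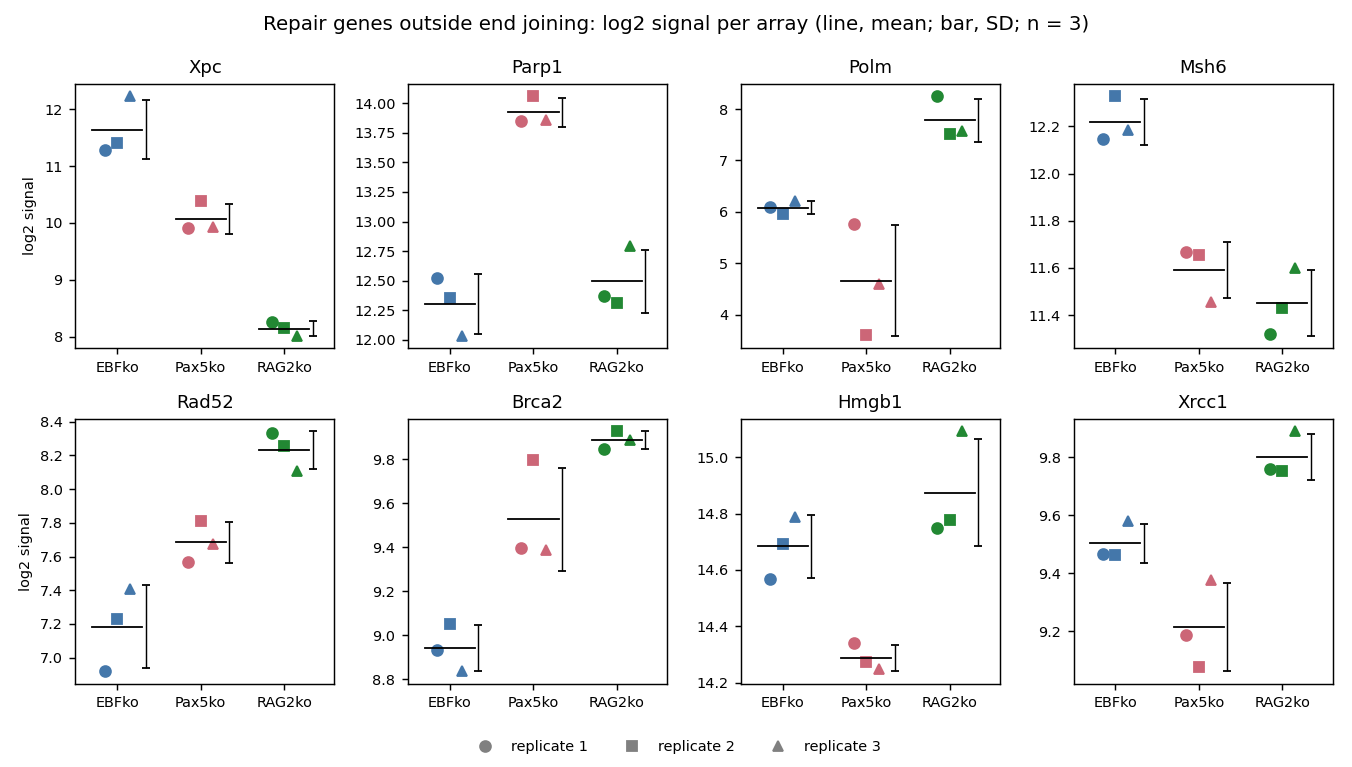
Log2 signal (y axis) of 8 repair genes outside end joining on each array of EBFko, Pax5ko and RAG2ko (x axis), with the mean as a line and the SD as a bar. Xpc steps down from EBFko to Pax5ko to RAG2ko, and Parp1 is high on the 3 Pax5ko arrays; the y axes differ between panels.

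Other genes of these pathways and targets of p53 numbered 119 listed and 93 tested. Some of them were called in each of the 3 comparisons, where 10.7%, 18% and 22% of all genes tested were called. In Pax5ko over EBFko, where 5.1% of all genes were higher and 5.56% lower, 0 were higher and 5 lower in the limma fit (9 and 17 at an unadjusted p under 0.05), with a median difference of -0.04 against -0.02 for all genes. The 3 largest falls were in Xrcc2 (-1.08 ± 0.21, adjusted p = 0.0183) and Rad51d (-0.88 ± 0.19, adjusted p = 0.0277), which act in homologous recombination, and Ube2t (-0.78 ± 0.18, adjusted p = 0.0324), which encodes a ubiquitin-conjugating enzyme of the Fanconi pathway. In RAG2ko over Pax5ko, 18 were higher and 6 lower (9.8% and 8.15% of all genes), with a median of 0.21 against 0.07. In RAG2ko over EBFko 17 were higher and 8 lower (11.4% and 10.6% of all genes), with a median of 0.22 against 0.06.

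By pathway, the genes higher in RAG2ko than in Pax5ko included 6 of 16 tested for homologous recombination, 4 of 7 for the Fanconi pathway and 4 of 9 for break signalling, with 0 lower in these lists (0, 1 and 2 at an unadjusted p under 0.05), where 9.8% of all genes were higher and 8.15% lower. Against EBFko the counts were 4 higher and 1 lower, 2 and 0, and 2 and 0, where 11.4% of all genes were higher and 10.6% lower. With lists of this size, these counts are descriptions and no test of a list was made. In the first comparison the largest rises were Neil1 (2.17 ± 0.32, adjusted p = 0.00395) and Neil3 (1.64 ± 0.26, adjusted p = 0.00536), which encode glycosylases for oxidised bases, and Rad51c (1.85 ± 0.29, adjusted p = 0.00551), which acts in homologous recombination. Against EBFko they were Neil1 (1.93), Apex2 (1.26), an abasic site endonuclease, and Rad51c (1.22). Apobec3, which encodes a cytidine deaminase that restricts retroviruses, fell by 2.07 on the log2 scale in RAG2ko against Pax5ko (adjusted p = 3.76e-04). Base excision repair counts were 2 higher and 2 lower of 14 against Pax5ko and 4 and 1 against EBFko, and nucleotide excision repair had 1 and 1 of 14 in both. Against Pax5ko, mismatch repair had 1 and 0 of 5, alternative end joining 0 and 0 of 3 and checkpoint genes 0 and 1 of 9. At an unadjusted p under 0.05 these were 2 and 1, 1 and 0, and 1 and 1. Against EBFko the called counts of the same lists were 1 and 0, 1 and 0, and 2 and 1. Genes of proliferation were also called in these comparisons. Of 24, 5 were higher and 0 lower in RAG2ko than in Pax5ko (9.8% and 8.15% of all genes), with a median of 0.20, and 2 and 0 against EBFko (11.4% and 10.6% of all genes), with a median of 0.11. Rrm2, the ribonucleotide reductase subunit, differed by 1.39 ± 0.18 and 1.02 ± 0.18 in these comparisons, and Kif11, a spindle motor, was lower in Pax5ko relative to EBFko by a log2 difference of -0.69 ± 0.13. The mean of the 24 genes was 12.40 to 12.60 in EBFko, 12.38 on each Pax5ko array and 12.56 to 12.74 in RAG2ko, and its part in the differences of repair genes was not tested.

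Calls among genes known as targets of p53 came only in the comparisons with RAG2ko, and all were lower there. Of 16 tested, 0 were higher in any comparison, 0 were lower in Pax5ko than in EBFko (median -0.18), 2 were lower in RAG2ko than in Pax5ko (median -0.10) and 4 were lower in RAG2ko than in EBFko (median -0.77). Of all genes tested, 5.56%, 8.15% and 10.6% were lower in these comparisons. The first 2 counts lie near that background and the third lies above it, but no test of the list was made. At an unadjusted p under 0.05, 0 were higher and 4 lower, 1 and 6, and 1 and 9 in the same order. Pmaip1, which encodes the apoptosis protein NOXA, gave 10.55, 10.53 and 10.57 in EBFko, 8.87, 8.68 and 8.90 in Pax5ko and 3.56, 5.03 and 1.80 in RAG2ko. All RAG2ko arrays were dim, and the sizes of -5.35 ± 0.70 against Pax5ko (adjusted p = 0.00242) and -7.08 ± 0.70 against EBFko (adjusted p = 5.05e-04) rest on that dim signal. Zmat3, an RNA-binding protein gene, differed by -1.67 ± 0.29 and -1.96 ± 0.29 in the same comparisons, and gave 6.77, 6.65 and 7.71 in RAG2ko. Perp, a gene of cell adhesion and apoptosis, was lower in RAG2ko than in EBFko by -3.61 ± 1.05 on the log2 scale (adjusted p = 0.0471), with 2.90, 4.36 and 7.44 on the RAG2ko arrays. Perp and Zmat3 were thus highest on RAG2ko replicate 3, the array with more stromal signal, and Pmaip1 was lowest there. The mean of the p53 target list was 8.14, 8.0 and 8.83 in RAG2ko, 9.43, 9.09 and 9.48 in Pax5ko and 9.76, 9.35 and 9.92 in EBFko, so within each line replicate 2 was lowest. In EBFko and Pax5ko replicate 2 also had the lowest stromal mean, and the part of stromal transcripts in the p53 target differences was not tested.

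**Figure D4:**
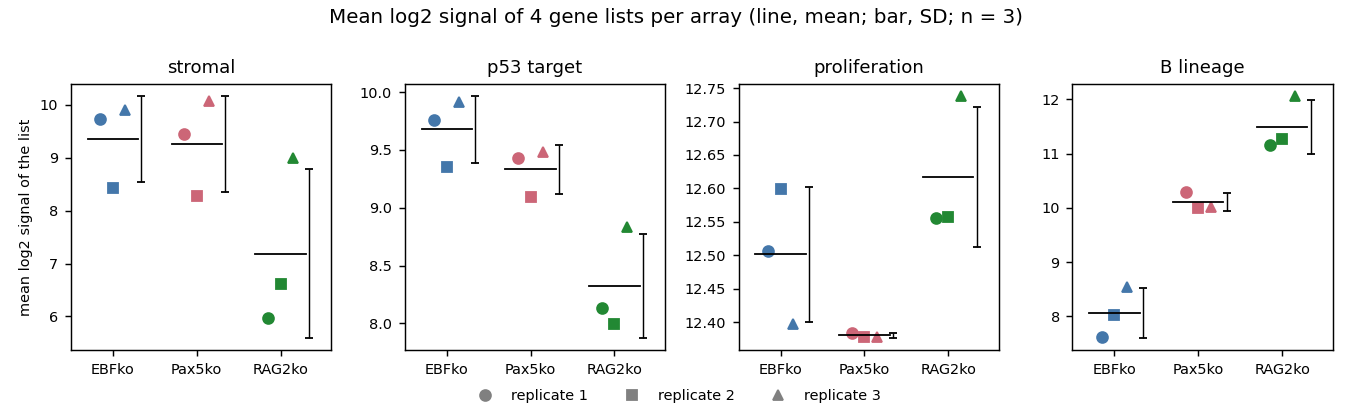
Mean log2 signal (y axis) of the stromal, p53 target, proliferation and B lineage lists on each of the 9 arrays, by line (x axis). RAG2ko replicate 3 is far above the other RAG2ko arrays in the stromal panel, and the p53 target means of RAG2ko lie below those of the other lines.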

How the data were processed

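Total RNA of 9 samples was measured on Affymetrix mouse expression arrays, 3 per line. The matrix the authors deposited gives linear signal intensities, 1 for each probe set of an array. GCRMA is the 1 tool named in the submitters' processing notes; the step that made linear values, with a mean of 500.003 or 500.004 on each array after trimming 2% at each end, is not stated. The design written for this work took the values for log2 signals, so they were log2 transformed here. The deposited tables of each knockout hold 1 linear ratio per probe set against an unstated reference; they supplied accessions and descriptions, and their ratios served as 1 alternative, matched to the lines by table name.

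Signals were quantile normalized over the 9 arrays. Of 45101 probe sets, 64 controls were left out, 13127 were named by accession, 5105 by a shared description, 93 by 47 descriptions matched by hand and 36 by a symbol in the description. Kept were probe sets whose log2 signal exceeded 4 on at least 3 of 9 arrays, and the brightest per gene was tested. limma 3.58.1 (lmFit and eBayes, R 4.3.3) fitted the 3 comparisons on all arrays, two-sided, with Benjamini-Hochberg adjustment over 9370 genes. The steps were tested on simulated data. No array was a copy of another. The number of arrays limits the precision.

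All 35 members are named. Of other pathway genes, the 3 largest called rises and falls per comparison, with the largest of each for proliferation, were named, and the others counted. Members and lists were chosen with earlier results of these data known. Alternatives were median centring, no filter or a filter at 6, averaged probe sets, plain _at probe sets, trend and robust eBayes, replicate block, a fit of the 6 arrays compared, signals under 64 raised to 64, the deposited ratios, and the omission of single arrays.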

Additional observations from a re-analysis of the deposited data

How the results depend on the processing

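Of 26 called differences of members, 10 kept their call under each of 9 alternatives that have a test and without each of the 9 arrays (Brca2 has no plain _at probe set, so 8 alternatives for it): Xrcc5 over EBFko in both lines, Xpc in all 3 comparisons, Parp1 in both called ones, Polm in RAG2ko over Pax5ko, and Lig4 and Brca2 in RAG2ko over EBFko. The deposited ratio tables, which have no test, reversed none of the 26. Xrcc1 in RAG2ko minus Pax5ko reversed to -0.14 (adjusted p = 0.706) with plain _at probe sets, since those leave out the set reported. Called under at least 1 alternative were 19 differences not called as reported. Higher members in Pax5ko over EBFko, 4 as reported, numbered 2 with averaged probe sets, 2 with plain _at sets and 2 in the fit of 6 arrays, and lower ones, 2 as reported, 1 with median centring, 1 with averaged sets, 4 with trend and robust eBayes and 1 with the replicate block. In RAG2ko over Pax5ko, the 7 higher became 3 with median centring, 4 with averaged sets, 2 with plain _at sets, 3 with the replicate block and 2 in the fit of 6 arrays, and the 3 lower became 5 with the filter at 6, 6 with trend and robust eBayes and 5 with signals raised to 64. In RAG2ko over EBFko, the 7 higher became 11 with trend and robust eBayes and 11 with signals raised to 64, and the 3 lower became 1 with median centring and 5 with trend and robust eBayes; the cause of these shifts was not tested. Leaving out 1 array gave 2 to 4 higher and 1 to 3 lower in Pax5ko over EBFko, 1 to 6 and 2 to 4 in RAG2ko over Pax5ko, and 4 to 7 and 2 to 4 in RAG2ko over EBFko. Deviations from the line means correlated at -0.03 to 0.15 between same-numbered arrays and at -0.19 to 0.12 between differently numbered ones. These values do not settle whether the numbers pair the samples. With the replicate block the counts were 4 higher and 1 lower, 3 and 2, and 7 and 3, and the calls of Msh6 and Brca2 in Pax5ko over EBFko, of Xrcc4, Xrcc6, Hmgb2, Rad52 and Ogg1 in RAG2ko over Pax5ko and of Ogg1 in RAG2ko over EBFko were lost. Dim signals, as of Polm in Pax5ko and Pmaip1 in RAG2ko, limit what sizes can be read.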
